A study of Homo sapiens with 12 samples.

Results

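The rescue line of a DHODH knockdown was compared with its control line in 6 of the 12 RNA sequencing libraries of the series: 3 libraries labelled KDR and 3 labelled NT, chosen by their titles alone. All 12 were labelled as MDA-PCA-2B, an established human line of androgen-responsive prostate adenocarcinoma cells, grown in a medium with fetal bovine serum and antibiotics and with no treatment named. Per the labels all are genetically modified lines: KD1 and KD2 are 2 knockdowns of DHODH and KDR is the rescue of the second, read here as a line that also holds the KD2 modification. The meaning of NT, the construct behind each knockdown, the way DHODH was restored and whether a line is 1 clone are not stated, and MDA-PCa-2a is named as well in the description of cell growth. The 3 KD2 and the 3 KD1 libraries were used to sort the differences between KDR and NT into those shared with KD2 and those found in KDR alone.

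DHODH encodes dihydroorotate dehydrogenase, an enzyme of the inner mitochondrial membrane that oxidises dihydroorotate to orotate on the way to UMP and hands the electrons to ubiquinone. It thereby links the supply of pyrimidine nucleotides, which RNA and DNA synthesis need, to the respiratory chain. A rescue line, in which the lost gene is put back, is the usual control for effects of a knockdown that do not come from the gene itself.

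Levels are given as CPM, counts scaled to a library of 1e6 after trimmed mean of M values (TMM) scaling, always in the order of replicates 1, 2 and 3, and differences as log2 fold changes of KDR against NT with their SE. A gene was called where edgeR's quasi-likelihood test gave a Benjamini-Hochberg adjusted p under 0.05 over the 19373 genes tested, in 1 fit of all 12 libraries. The 6 libraries held 25837498 to 33794209 counts each. Their typical spread (biological coefficient of variation) amounted to 5.48% in KDR and 15.2% in NT, and 8.27% in NT without replicate 2, so values without that library are given where they change a statement. The labels do not say whether libraries of a group came from separate cultures, so p-values measure a spread that may be technical. In bulk RNA, fewer cells that express a gene and less RNA per cell cannot be told apart. Markers of luminal prostate cells were present in both groups: KLK3, which encodes prostate-specific antigen, averaged 8955 CPM in NT and 8089 in KDR, TMPRSS2 3177 and 3003, and HOXB13 793 and 756. Of the marker genes of other cells, 9 of 14 for fibroblasts and smooth muscle, 10 of 13 for immune cells and 8 of 12 for endothelium were too low to be tested.

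DHODH RNA was higher in KDR than in any other library. DHODH (ENSG00000102967, GRCh38 chromosome 16, 72008588 to 72027664) stood at 9.19, 13.4 and 8.95 CPM in NT and at 18.9, 19.2 and 17.5 CPM in KDR. All 3 KDR libraries lay above the 9 others, and NT replicate 2 was the highest of its group. The rise was 0.82 ± 0.14 (95% interval 0.53 to 1.11, adjusted p = 0.0001), and 1.03 without NT replicate 2. The mean was 13.1 ± 1.73 CPM in the libraries labelled KD2 and 10.3 ± 0.67 in those labelled KD1 (SD, n = 3 each) against 10.5 ± 2.5 in NT, so KD2 was not below NT and KD1 differed from it by less than the SD of NT. Protein was not measured. The neighbouring steps of the pathway were close to NT in KDR: CAD, which makes dihydroorotate, had a log2 fold change of 0.0030 ± 0.08 (95% interval -0.17 to 0.17), and UMPS, which turns orotate into UMP, one of 0.0078 ± 0.08 (-0.16 to 0.18). RRM2, a subunit of the reductase that makes deoxynucleotides, rose by 1.49 ± 0.10, from 8.88, 10.3 and 11.3 CPM in NT to 27.4, 28.6 and 29.6 in KDR.

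**Figure D1:**
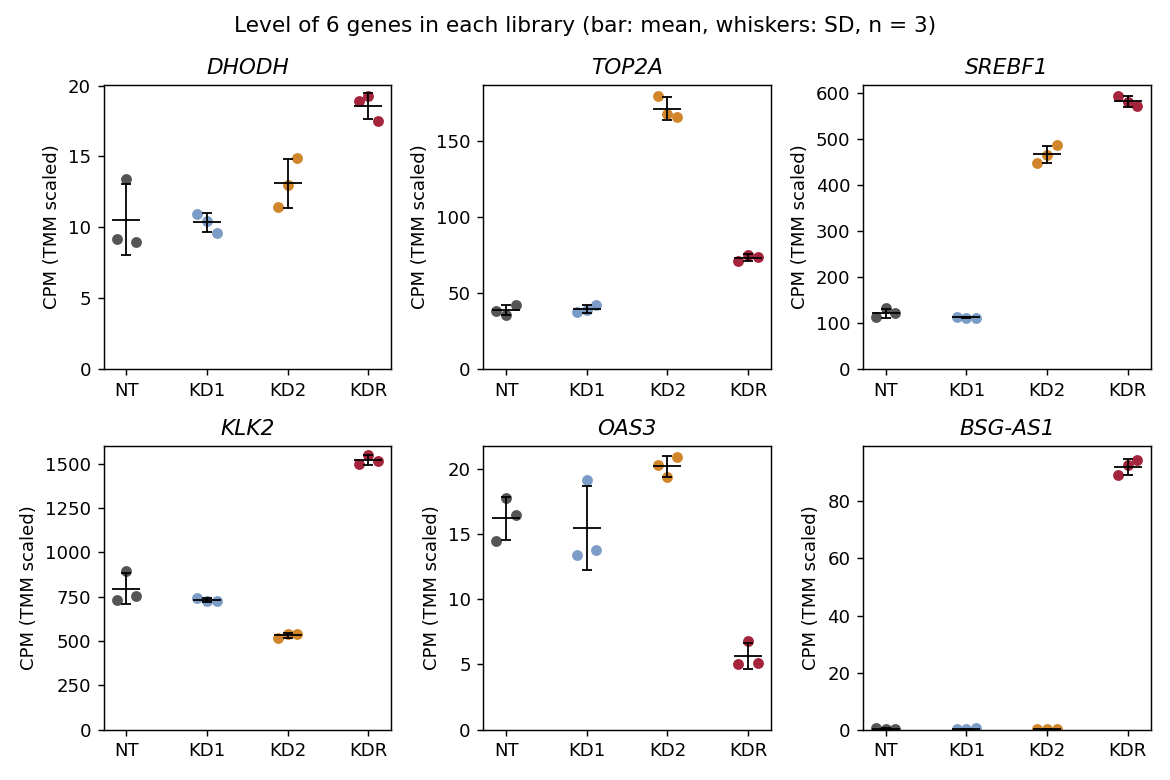
Level of 6 genes in each of the 12 libraries, in CPM after TMM scaling on linear axes that start at 0. Points are libraries, horizontal bars group means and whiskers the SD over 3 libraries; the KDR points lie above all others for DHODH, SREBF1, KLK2 and BSG-AS1, between NT and KD2 for TOP2A, and below all others for OAS3.

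Between KDR and NT, 5337 of 19373 genes were called, or 27.5%, of which 2522 (13% of those tested) were higher and 2815 (14.5%) lower in KDR. At least 2-fold differences (an absolute log2 fold change of 1) were found for 641 higher and 609 lower genes. Among the 5337, 2829 (53%) were also called in KD2 against NT in the same direction, 1223 of them higher and 1606 lower. These 2829 are 40.7% of all genes called in KD2 against NT. Over all genes tested, KD2 against NT called 35.9%, with 17.8% higher and 18.2% lower. Both comparisons use the same NT libraries. With KD2 against KD1, which shares no library with KDR against NT and called 35.5% of all genes tested, the count was 2630. KD1 itself was close to NT in RNA: 1185 of the 19373 genes had an unadjusted p under 0.05 between them in edgeR. Of the 2829 genes that stayed different, 1763 had no called difference between KDR and KD2 (a comparison that called 32.4% of all genes), 812 lay part of the way back to NT and 254 lay farther from NT than KD2 did. Another 428 genes (2.21% of those tested) were called in KDR in the direction opposite to KD2, 227 higher (1.17%) and 201 lower (1.04%). A further 1074 genes (5.54% of those tested), 548 higher (2.83%) and 526 lower (2.72%), were found in KDR alone: they were called in 1 direction against NT, KD1 and KD2 and were not called between KD2 and NT. The lack of a call between KD2 and NT does not show that these groups were equal. The remaining 1006 were called against NT but not clearly set apart from the other groups. Over all genes tested, the libraries of KDR and NT did not overlap in 38.2%. In 14.5% the KDR libraries lay beyond all 9 others, above or below. Without NT replicate 2, 6180 of 20065 genes (30.8%) were called, 3382 of them shared with KD2 and 1426 in KDR alone; 4713 of the 5337 calls, 2464 of the 2829 and 916 of the 1074 were kept.

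**Figure D2:**
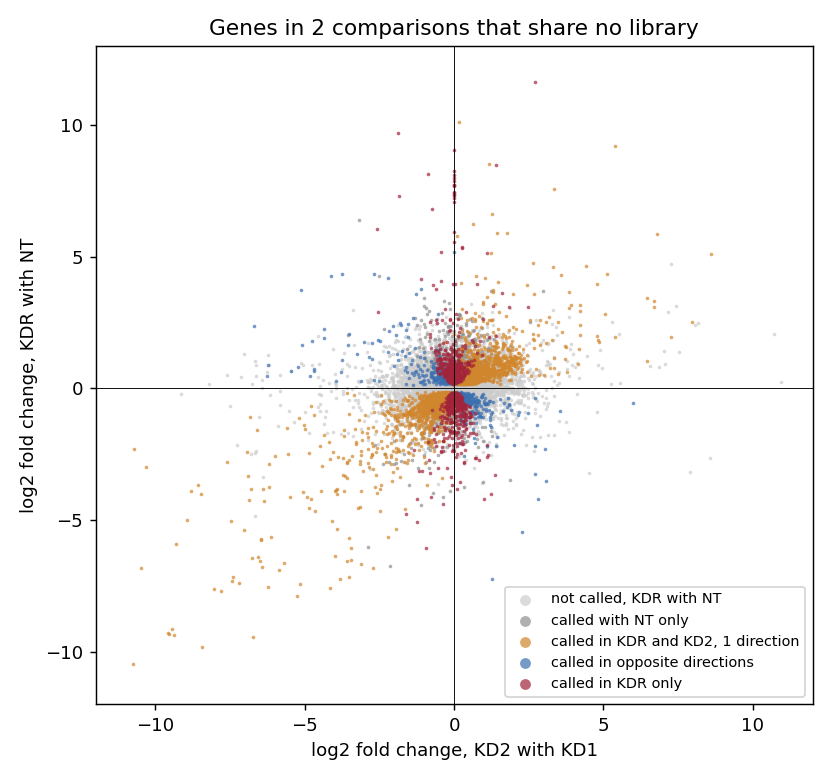
Log2 fold change of each tested gene in KDR with NT (vertical) against KD2 with KD1 (horizontal), 2 comparisons that share no library; 1 gene lies outside the axes. Colours give the groups described in the text: genes called in both KDR and KD2 lie along the rising diagonal, those called in opposite directions in the other quadrants, and those called in KDR alone near the vertical line at 0.

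Genes of cell division stayed above control in KDR, at a lower level than in KD2. Of 34 tested genes of mitosis and G2/M, 30 rose and 0 fell against NT, with a median log2 fold change of 0.72 where all genes had 0.0088; the same list had a median of 1.77 in KD2 against NT, and all 30 were called there too. MKI67, the proliferation marker Ki-67, read 20.7, 21.8 and 22.9 CPM in NT, 97.7, 103 and 99.2 in KD2 and 48.1, 48.3 and 47.5 in KDR. The 3 groups did not overlap, and KDR was 1.14 ± 0.08 above NT (adjusted p = 1.7e-10) and 1.06 below KD2 (log2 fold change -1.06 ± 0.07, adjusted p = 1.4e-10). TOP2A, which untangles DNA before division, followed the same order with 38.2, 35.7 and 42.2, then 180, 168 and 166, then 70.9, 75.2 and 73.9 CPM. CDK1, the kinase that drives entry into mitosis, rose by 0.85 ± 0.10 and UBE2C, a conjugating enzyme of the anaphase-promoting complex, by 1.21 ± 0.14. BUB3, a spindle checkpoint protein chosen after its values were seen, had a difference of 0.04 and was not called.

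The promoters of CDK1 and MKI67 show the element TTTGAA, known as the cell cycle genes homology region, through which division genes are held back outside the dividing phase. The 250 bases before the RefSeq start (GRCh38.p14; for CDK1, 1 of 2 starts in the table) are printed 5′ to 3′ in the direction of the gene, with each match on either strand in capitals.
CDK1 (chr10:60778081-60778330, plus strand): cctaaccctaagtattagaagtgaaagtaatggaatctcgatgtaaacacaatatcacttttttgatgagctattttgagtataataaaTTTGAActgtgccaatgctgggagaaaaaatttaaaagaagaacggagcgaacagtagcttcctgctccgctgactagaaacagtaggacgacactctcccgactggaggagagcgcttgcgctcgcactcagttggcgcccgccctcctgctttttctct
MKI67 (chr10:128126424-128126673, minus strand): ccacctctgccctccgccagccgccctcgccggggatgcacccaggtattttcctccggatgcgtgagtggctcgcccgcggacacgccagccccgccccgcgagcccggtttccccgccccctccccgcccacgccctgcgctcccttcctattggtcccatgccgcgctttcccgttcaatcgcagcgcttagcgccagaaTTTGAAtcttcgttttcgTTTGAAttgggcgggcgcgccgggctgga
Of the 27 tested mitosis genes with such a window, 15 held TTTGAA on either strand, against 16.1% of the 27305 genes in the table. Among those 15, 12 rose in KDR, as did 12 of the 12 without it. A match is a string of letters, not a measured site.

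DNA replication and repair followed with smaller differences. Of 37 genes of replication and G1/S, 28 rose and 0 fell, with a median of 0.46 (0.75 in KD2), and of 30 genes of homologous recombination and Fanconi anaemia, 16 rose and 1 fell (median 0.47; 0.90 in KD2). Without NT replicate 2 the counts were 26 and 1, and 16 and 3. CDT1, which licenses replication origins, rose from 11.3 to 22.6 CPM (1.01 ± 0.10) and MCM5, a subunit of the replicative helicase, from 24.3 to 43.2 (0.83 ± 0.08). FANCI, a clamp protein of crosslink repair, rose by 0.90 ± 0.08, and BARD1, a ubiquitin ligase partner in recombination, by 0.79 ± 0.09. Excision, mismatch and end-joining repair had 7 of 36 genes higher and 0 lower (19.4%, against 13% higher over all genes; median 0.12), and 10 higher without NT replicate 2. Of 27 p53 targets and cell cycle inhibitors, 8 fell and 2 rose (median -0.0013); CDKN1A, which encodes p21 and had risen by 0.29 in KD2, fell by 0.40 ± 0.06.

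Sterol and fatty acid genes stayed raised in KDR, and several stood above KD2. SREBF1, the transcription factor that turns on lipid synthesis, read 112, 132 and 121 CPM in NT, 449, 465 and 487 in KD2 and 594, 580 and 572 in KDR. Every KDR library was above every KD2 library, with 2.26 ± 0.06 against NT (adjusted p = 7e-18) and 0.32 ± 0.06 against KD2 (adjusted p = 9.6e-05). SCD, which puts the double bond into stearate, read 434, 411 and 410 CPM in NT, 1027, 1020 and 1012 in KD2 and 1262, 1296 and 1308 in KDR, again with no overlap (1.62 ± 0.05 against NT). FASN, the fatty acid synthase, rose by 1.00 ± 0.06, from a mean of 1969 to 3924 CPM. Of the 20 tested genes of fatty acid synthesis and storage, 11 rose and 1 fell (median 0.28).

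Of 26 genes of cholesterol synthesis and uptake, 21 rose and 1 fell in KDR (median 0.55; 0.66 in KD2), and 18 of these calls were shared with KD2. INSIG1, the sterol sensor that retains the SREBP precursors in the endoplasmic reticulum, read 32.1, 22.6 and 27.6 CPM in NT and 100, 103 and 104 in KDR, a rise of 1.90 ± 0.09. It had no called difference from KD2 (0.20 ± 0.09, adjusted p = 0.097). SREBF2, the sterol branch's own factor, chosen after its values were seen, rose by 0.54 ± 0.06. The member that fell was PMVK, phosphomevalonate kinase, with a log2 fold change of -0.35; it too was chosen after its values were seen.

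Genes listed for ATF4 and the integrated stress response mostly stayed below control. ATF4 is the transcription factor that this response translates when amino acids or proteins are out of balance. Of 35 tested genes 25 fell and 1 rose, with a median of -0.34 against -0.58 in KD2, and 24 of the calls were shared with KD2. CEBPG, a partner of ATF4, read 198, 187 and 211 CPM in NT, 119, 106 and 109 in KD2 and 137, 132 and 138 in KDR. The groups did not overlap, with KDR between the other pair (log2 fold change -0.55 ± 0.06 against NT, adjusted p = 2.3e-07). ATF4 itself, chosen after its values were seen, fell by 0.36 ± 0.05, SLC3A2, the heavy chain of the leucine and cystine carriers, by 0.46 ± 0.05, and STC2, a secreted glycoprotein, by 0.51 ± 0.05. GDF15, a stress hormone, went farther from NT in KDR than in KD2, with 4768, 5594 and 4828 CPM in NT, 4084, 4180 and 4467 in KD2 and 3264, 3237 and 3131 in KDR.

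ATF4 and C/EBP proteins bind a composite element whose core is TGATGNAA, and CEBPG is shown because it is a called member with that core in its window. The window is as described above, at 1 of its 2 starts in the table, with the match on either strand in capitals.
CEBPG (chr19:33373863-33374112, plus strand): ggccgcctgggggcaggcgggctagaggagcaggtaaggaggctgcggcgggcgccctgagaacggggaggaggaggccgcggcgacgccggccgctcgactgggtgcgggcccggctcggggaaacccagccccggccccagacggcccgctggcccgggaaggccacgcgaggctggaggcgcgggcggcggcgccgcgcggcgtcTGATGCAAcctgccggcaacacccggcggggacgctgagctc
The core occurred in the windows of 7 of 28 list genes that had one, against 3.89% of all genes in the table. Of these 7, 5 fell and 1 rose, and of the 21 without it, 17 fell.

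Many nuclear genes of the respiratory chain were lower and some mitochondrially encoded mRNAs higher, as they were in KD2. Of 37 subunits of complex I, 17 fell and 1 rose (median -0.20; -0.25 in KD2), and of 34 subunits of complexes III, IV and V, 18 fell and 0 rose (median -0.26; -0.23 in KD2). CYC1, cytochrome c1, fell by 0.47 ± 0.07 and NDUFA8, an accessory subunit of complex I, by 0.44 ± 0.09. Among the 13 mRNAs of the mitochondrial genome 5 rose, 0 fell and 8 were not called (median 0.24), and 9 rose without NT replicate 2. Their summed level ran from 22380 to 31130 CPM in NT and from 31070 to 32160 in KDR, so the groups overlapped. MT-ND6, a complex I subunit, rose by 0.56 ± 0.05. NT replicate 3 had 2.59% of its counts in mitochondrial genes against 3.42% and 3.37% in the other NT libraries and 3.45% to 3.53% in KDR. Without that library MT-ND6 was 0.57 above NT and MT-ND1, another complex I subunit, 0.36 in place of 0.51, both still called. The list as a whole was not counted again without NT replicate 3.

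Enzymes other than DHODH that feed electrons to ubiquinone were lower in KDR in 7 of 11 cases and higher in 0 (median -0.31; -0.12 in KD2). GPD2, the mitochondrial glycerol-3-phosphate dehydrogenase, had moved the other way in KD2: it read 17.9, 15.2 and 15.8 CPM in NT, 31.3, 30.6 and 29.6 in KD2 and 8.51, 8.35 and 8.67 in KDR. It was thus below NT in every KDR library and above it in every KD2 library (log2 fold change -0.94 ± 0.10 in KDR, 0.90 in KD2). CHDH, choline dehydrogenase, was among the genes changed in KDR alone and fell by 0.57 ± 0.07, from 69.6 to 47.0 CPM. ETFDH and ETFA, which pass on electrons from fatty acid oxidation, fell by 0.48 ± 0.09 and 0.37 ± 0.05 and had no called difference from KD2. Among 21 genes of the citric acid cycle, 9 fell and 2 rose (median -0.17); IDH2, the mitochondrial NADP-dependent isocitrate dehydrogenase, fell by 0.71 ± 0.07 and IDH1, its cytosolic counterpart, rose by 0.24 ± 0.05.

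**Figure D3:**
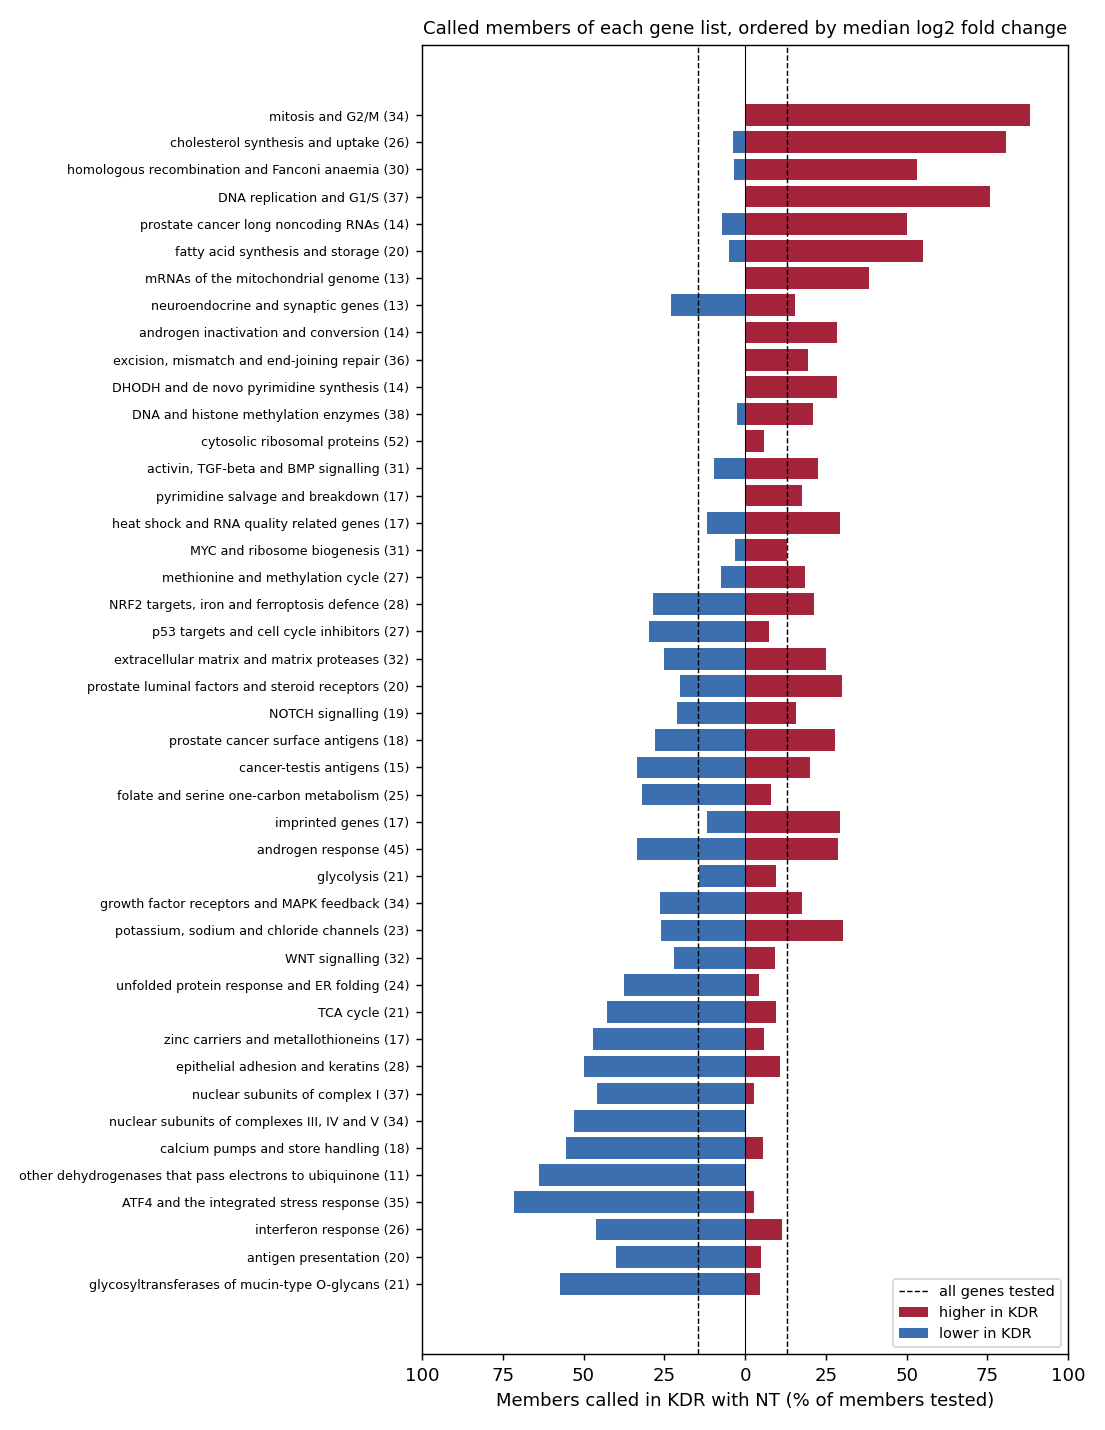
Share of the tested members of 44 gene lists that were called higher (red, to the right) or lower (blue, to the left) in KDR with NT, with the number tested in brackets and the lists ordered by median log2 fold change. Dashed lines mark the shares over all genes tested, 13% higher and 14.5% lower; mitosis and cholesterol genes are at the top, interferon, antigen presentation and O-glycan genes at the bottom.

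Some single genes stayed almost silent in KDR as in KD2. GALNT17, a transferase that starts O-linked sugar chains, read 15.7, 19.2 and 17.2 CPM in NT and 0.409, 0.0645 and 0.366 in KDR, with 0.0189 as the mean of KD2. In counts, 26 in KDR faced 1539 in NT, a ratio of 0.0162 (95% counting interval 0.0105 to 0.0238). Against KD2, which had 2 counts, GALNT17 was called higher in KDR (log2 fold change 3.41 ± 0.80, edgeR adjusted p = 0.002). OBSL1, an adaptor of the cytoskeleton, fell by 3.91 ± 0.17 from 20.1, 24.7 and 20.0 CPM to 1.70, 1.45 and 1.10. CNN3, an actin-binding calponin, fell by 3.40 ± 0.15 from 23, 20.4 and 25.7 CPM to 1.84, 2.45 and 2.27. Neither had a called difference from KD2 (adjusted p = 0.056 for OBSL1 and 0.37 for CNN3). NRCAM, a neuronal adhesion molecule, was lower still than in KD2, with means of 10.6 CPM in NT, 6.71 in KD2 and 0.842 in KDR.

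Among the genes that stayed higher, ADGRF1, an adhesion G protein-coupled receptor, read 9.97, 9.25 and 7.39 CPM in NT, 174, 168 and 166 in KD2 and 70.4, 64.8 and 67.4 in KDR (2.92 ± 0.10 against NT). MMP7, a matrix protease, rose by 2.03 ± 0.07 to a mean of 92.8 CPM, between 22.8 in NT and 428 in KD2. Others rose far beyond KD2. COL2A1, the collagen of cartilage, read 0.745, 1.85 and 2.06 CPM in NT, a mean of 4.33 in KD2, and 52.5, 55.0 and 52.6 in KDR (5.13 ± 0.20). TENM1, a teneurin, rose by 3.21 ± 0.16 and TFF1, a trefoil peptide of mucous epithelia, by 2.46 ± 0.15.

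Some genes that differed strongly in KD2 lay part of the way back to NT in KDR and were still called against it. IGFBP3, which binds insulin-like growth factors, read 548, 560 and 549 CPM in NT and 794, 799 and 779 in KDR, with a mean of 3982 in KD2. SPON2, a secreted matrix protein, averaged 1038 CPM in NT, 36 in KD2 and 656 in KDR. The differences from NT that remained were 0.52 ± 0.04 for IGFBP3 and -0.66 ± 0.06 for SPON2, and in both genes the libraries of KDR and NT did not overlap. WNT5A, a ligand of noncanonical WNT signalling, averaged 742 CPM in NT, 3437 in KD2 and 1628 in KDR (1.13 ± 0.07 against NT). DUSP4, a phosphatase induced by MAP kinase signalling that acts back on it, rose by 0.92 ± 0.05, from a mean of 176 to 334 CPM, below the 575 of KD2. THNSL2, a threonine synthase-like protein, regained part of its level, from 0.0904 CPM in KD2 to 2.31 in KDR, against 16.1 in NT.

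The genes found in KDR alone were led by transcripts that were near 0 in all other groups. BSG-AS1 (ENSG00000267751, GRCh38 chromosome 19, 562360 to 572228, minus strand), an RNA antisense to BSG, read 0.497, 0.0992 and 0.381 CPM in NT and 89.1, 92.8 and 94.4 in KDR. Its mean was 0.277 CPM in KD1 and 0.15 in KD2, so all 9 other libraries were below 1 CPM, and the log2 fold change was 8.12 ± 0.20 (adjusted p = 6e-18). BSG, the overlapping gene, chosen after its values were seen, averaged 701 CPM in NT and 641 in KDR and was not called (-0.13 ± 0.06). Strand was not used in counting, so in the stretch that both genes cover their reads cannot be told apart. ENSG00000287424 on chromosome 4 (165647636 to 165757667), which has no symbol, had 1238 counts over the 3 KDR libraries and 0 over the 3 of NT, at least 395-fold more against a floor of 3 counts over the group. LINC02713 on chromosome 11, a long noncoding RNA, had 1054 counts in KDR and 4 in NT (ratio 253, 95% counting interval 98.3 to 928).

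SGCE and ZFTRAF1 were among the protein-coding genes that rose in KDR alone. SGCE (chromosome 7, 94524204 to 94656572), which encodes epsilon-sarcoglycan, read 13.4, 9.45 and 10.4 CPM in NT and 173, 173 and 178 in KDR, with means of 10.9 in KD1 and 11.0 in KD2. The rise was 3.97 ± 0.10, and the groups were far apart. PEG10, a gene of retrotransposon origin that starts beside SGCE on the opposite strand and is imprinted with it, read 1.18, 0.496 and 1.37 CPM in NT and 12.2, 9.77 and 11.5 in KDR (3.46 ± 0.27), and had also risen by 1.08 in KD2. CASD1, whose span overlaps that of SGCE, was chosen after its values were seen. It had a difference of -0.06 ± 0.09 and was not called. Reads in any stretch that both genes cover cannot be told apart in these counts. ZFTRAF1 (chromosome 8, 144449582 to 144462871), a zinc finger protein, read 46.3, 41.3 and 44.0 CPM in NT and 313, 310 and 307 in KDR (2.82 ± 0.07), with 40.8 as the mean of KD2. Of 17 imprinted genes tested, 5 rose and 2 fell (median -0.05), where 13% of all genes were higher and 14.5% lower. Without NT replicate 2, 4 rose and 3 fell. PHLDA2, which encodes a pleckstrin homology domain protein, fell by 0.68 ± 0.07.

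AKAP12, a scaffold for protein kinase A, rose in KDR alone from 6.58, 6.68 and 9.76 CPM to 45.6, 45.6 and 46.7 (2.59 ± 0.15), and SLC39A8, a carrier of zinc and manganese, from a mean of 63.3 to 165 (1.38 ± 0.07). SHMT1, the cytosolic serine hydroxymethyltransferase that feeds thymidylate synthesis, rose by 0.97 ± 0.08, from 51.8 to 101 CPM, with 53 in KD2. USP3-AS1 rose by 2.46 ± 0.22 and USP3, the gene it overlaps, chosen after its values were seen, by 0.91 ± 0.08. Reads in the stretch that both genes cover cannot be told apart in these counts. In the other direction, SAMD4A, an RNA-binding repressor of translation, read 31.1, 27.4 and 30.3 CPM in NT and 4.39, 6.61 and 4.61 in KDR (log2 fold change -2.51 ± 0.12). DNAH8, a dynein heavy chain, fell by 2.00 ± 0.11, FGF13 by 2.16 ± 0.21, and CERS1, a ceramide synthase, by 2.11 ± 0.18. Each of these falls left all 3 KDR libraries below the 9 others, which the choice of genes called against all 3 other groups makes likely. DNAH8 was also lower in KD2 than in KD1 (log2 fold change -0.36, edgeR adjusted p = 0.0086), while FGF13 and CERS1 had no called difference there.

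Several interferon-stimulated genes and genes of the class I antigen pathway were lower in KDR than in all other groups. Of 26 tested genes of the interferon response, 12 fell and 3 rose, with a median of -0.38 in KDR and 0.12 in KD2, and 6 of the calls belonged to KDR alone. Without NT replicate 2, 11 fell and 6 rose. OAS3, which senses double-stranded RNA and activates RNase L, read 14.4, 17.8 and 16.5 CPM in NT, 20.3, 19.4 and 20.9 in KD2 and 5.03, 6.77 and 5.12 in KDR. All KDR libraries were below the 9 others (log2 fold change -1.52 ± 0.15 against NT, adjusted p = 4e-08; -1.84 ± 0.15 against KD2, adjusted p = 1.1e-09). OAS1, its neighbour on chromosome 12 with the same activity, fell by 3.02 ± 0.31 from 3.57, 3.11 and 2.82 CPM to 0.497, 0.226 and 0.439. IFIH1, which encodes the RNA sensor MDA5, fell by 0.83 ± 0.11 and IFI35 by 2.40 ± 0.31, the latter also in KD2. GBP2, a guanylate-binding GTPase named after its values were seen, stood at 3.24 CPM in NT, 14.4 in KD2 and 1.72 in KDR. Against the trend, MX1, an antiviral GTPase likewise chosen after its values were seen, rose from 42.0 to 62.2 CPM (0.57 ± 0.08) and had been at 15 in KD2.

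The core that interferon-activated factors are known to bind, a pair of GAAA blocks with any 2 bases between them, is in capitals in the windows of OAS3 and IFIH1, which fell, and of MX1, which rose.
OAS3 (chr12:112938224-112938473, plus strand): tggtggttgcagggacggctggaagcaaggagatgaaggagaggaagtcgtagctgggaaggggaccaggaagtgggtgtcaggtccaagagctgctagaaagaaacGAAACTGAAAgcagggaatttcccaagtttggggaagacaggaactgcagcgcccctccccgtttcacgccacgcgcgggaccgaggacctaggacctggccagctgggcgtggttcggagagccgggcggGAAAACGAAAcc
IFIH1 (chr2:162318685-162318934, minus strand): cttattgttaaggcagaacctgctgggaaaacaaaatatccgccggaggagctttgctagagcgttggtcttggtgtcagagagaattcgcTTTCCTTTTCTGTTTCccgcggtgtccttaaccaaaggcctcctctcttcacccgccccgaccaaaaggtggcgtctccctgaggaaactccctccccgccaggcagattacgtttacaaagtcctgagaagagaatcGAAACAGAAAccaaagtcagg
MX1 (chr21:41431800-41432049, plus strand): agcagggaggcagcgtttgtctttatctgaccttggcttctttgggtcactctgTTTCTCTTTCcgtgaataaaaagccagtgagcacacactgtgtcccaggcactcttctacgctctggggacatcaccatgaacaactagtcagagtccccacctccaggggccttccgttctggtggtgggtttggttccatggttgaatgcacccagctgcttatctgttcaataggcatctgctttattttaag
The window of MX1 is that of 1 of its 3 starts in the table. Of 17 list genes with a window, 11 held the element on either strand, against 3.71% of all genes in the table. Of the 11, 5 fell and 1 rose in KDR, and of the 6 without it, 2 fell and 1 rose, so members with and without the element moved in both directions.

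Of 20 genes of antigen presentation, 8 fell and 1 rose (median -0.40 in KDR, 0.15 in KD2). PSMB8, a subunit of the immunoproteasome, read 14.4, 21.0 and 15.7 CPM in NT, 19.3, 19.5 and 17.8 in KD2 and 4.97, 5.16 and 5.89 in KDR (log2 fold change -1.68 ± 0.14). B2M, the light chain of class I molecules, fell by 0.60 ± 0.05 and had no called difference from KD2. HLA-DRA, a class II chain, was the member that rose: 118, 132 and 108 CPM in NT became 236, 251 and 246 in KDR (1.03 ± 0.06), with 115 in KD2. TAP1, the peptide transporter, chosen after its values were seen, had a difference of -0.13 ± 0.08 and was not called.

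**Figure D4:**
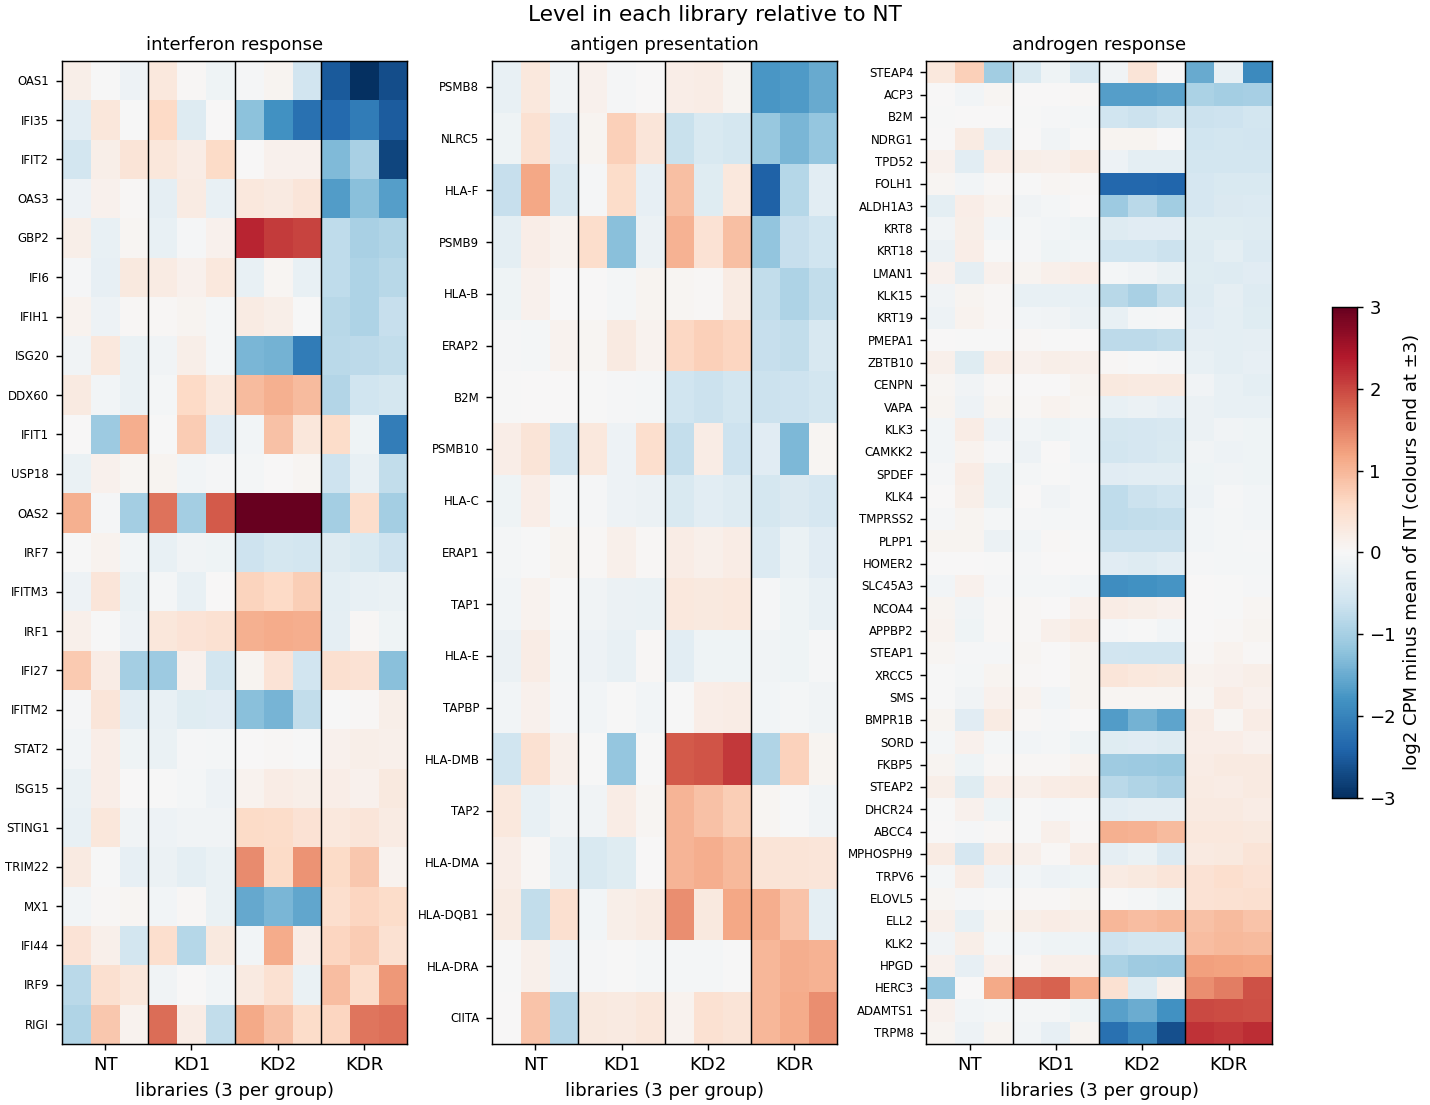
Log2 CPM in each library minus the mean of NT for tested genes of 3 lists, with 3 libraries per group and rows ordered by the mean of KDR; colours end at -3 and 3. OAS1, OAS3 and PSMB8 are blue in all 3 KDR libraries, and TRPM8, ADAMTS1 and KLK2 are red in KDR and blue in KD2.

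Androgen response genes, which androgens induce in luminal cells, were lower as a list in KD2 (29 of 45 lower, 6 higher) and split in KDR, with 13 higher, 15 lower and a median of -0.05. In 9 of its members the calls in KDR and KD2 had opposite signs. KLK2, a kallikrein protease close to prostate-specific antigen, read 732, 896 and 756 CPM in NT, 517, 542 and 538 in KD2 and 1498, 1550 and 1516 in KDR. The groups did not overlap, and KDR was 0.94 ± 0.06 above NT (adjusted p = 2.5e-11). TRPM8, a cold-sensing calcium channel of the prostate, read 21.2, 18.2 and 21.3 CPM in NT, 4.26, 5.21 and 3.21 in KD2 and 91.3, 87.7 and 94.2 in KDR. It was thus 2.17 ± 0.11 above NT in the rescue line and 2.25 below it in KD2 (log2 fold change -2.25). ADAMTS1, a secreted protease, rose by 1.95 ± 0.08 and was below NT in KD2.

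Other androgen-responsive genes returned to the level of NT or stayed below it. KLK3, KLK4, TMPRSS2 and SLC45A3, chosen after their values were seen, had differences of -0.15, -0.09, -0.08 and -0.01 and were not called. ACP3, the prostatic acid phosphatase, stayed lower at 320, 307 and 310 CPM against 625, 590 and 649 in NT, part of the way back from 199 in KD2. FOLH1, which encodes prostate-specific membrane antigen, was named as a prostate cancer surface antigen, not as a gene that androgens induce. It averaged 1491 CPM in NT, 290 in KD2 and 1072 in KDR, a fall of 0.48 ± 0.04 that remained. Of 14 genes of androgen inactivation and conversion, 4 rose and 0 fell (28.6% called, close to the 27.5% of all genes), and without NT replicate 2, 3 rose and 2 fell. Among them are 2 genes of a family of enzymes that add glucuronic acid. UGT2B11 read 1.80, 1.55 and 1.91 CPM in NT and 14.0, 13.9 and 14.8 in KDR (3.02 ± 0.19). UGT2B28 read 1.02, 0.826 and 0.915 CPM in NT and 11.4, 10.8 and 10.6 in KDR (3.56 ± 0.29). These 2 genes on chromosome 4 are near-identical copies, so how reads divide between them is uncertain.

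The largest moves opposite to KD2 lay outside the androgen list. SLC2A13, a carrier of myo-inositol, read 17.1, 10.4 and 14.9 CPM in NT and 105, 94.2 and 104 in KDR, with 10.7 as the mean of KD2. BANK1, a scaffold of B cell receptor signalling, read 5.37, 5.65 and 6.13 CPM in NT and 36.8, 37.3 and 36.2 in KDR, with 2.65 in KD2. Both rose in every KDR library above all 9 others, SLC2A13 by 2.84 ± 0.12 and BANK1 by 2.69 ± 0.12. PPFIA2, a liprin of synaptic scaffolds, had 932 counts in KDR and 44 in NT (ratio 20.3, 95% counting interval 15 to 28.1), and 3 in KD2. NAALADL2, a gene related to the peptidase of prostate-specific membrane antigen, rose by 3.75 ± 0.20, from 3.39 to 45.7 CPM. In the other direction EPDR1, an ependymin-related protein, read 8.51, 8.00 and 9.49 CPM in NT and 1.08, 1.81 and 1.46 in KDR, with 12.4 in KD2 (log2 fold change -2.58 ± 0.20). SLC40A1, the iron exporter ferroportin, fell by 1.14 ± 0.20 and had risen by 0.58 in KD2, and FTL, the ferritin light chain, fell by 0.67 ± 0.05, with no called difference from KD2.

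Epithelial genes were mostly at or below control. Of 28 tested genes of epithelial adhesion and keratins, 14 fell and 3 rose (median -0.19). CDH1, E-cadherin, chosen after its values were seen, read 303, 328 and 283 CPM in NT, 25.6, 29.3 and 34.6 in KD2 and 257, 253 and 251 in KDR. The KDR libraries were far above KD2 and still below all 3 of NT (log2 fold change -0.26 ± 0.07, adjusted p = 0.0086). DSG2, a desmosomal cadherin, fell in KDR alone, by 0.82 ± 0.07 from 87.8 to 49.8 CPM. KRT8, a luminal keratin, fell by 0.38 ± 0.06 in KDR and by 0.36 in KD2. Markers of basal prostate cells, which sit under the luminal layer, were lower in 4 of 7 tested cases and higher in 1: ITGA6 and ITGB4, the integrin pair of hemidesmosomes, fell by 0.54 ± 0.08 and 0.62 ± 0.09.

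Called genes also lay side by side on chromosomes. Counting neighbouring tested genes called in 1 direction, the longest run held 11 higher genes on chromosome 2 (233307816 to 233868444), which starts at SAG and spans HJURP and the UGT1A genes, whose products conjugate bilirubin and drugs. The call of SAG, at a mean of 0.518 CPM in KDR, was lost under 11 of 17 alternatives, and that of ENSG00000293137, also in the run, under 4 of 18, with an adjusted p of 0.073 (edgeR) without NT replicate 2. The length of the run therefore depends on the processing. UGT1A6 read 0.342, 0.0661 and 0.267 CPM in NT and 4.39, 4.19 and 4.06 in KDR (4.20 ± 0.45). The genes of this cluster share exons, and reads in the shared exons cannot be assigned to 1 gene. DGKD, a diacylglycerol kinase in the run, rose by 0.76 ± 0.05, and USP40 by 0.49 ± 0.06, from 126 to 177 CPM. HJURP, the histone chaperone of centromeres, rose by 1.57 ± 0.11 and had risen in KD2 as well. TRPM8 lies just beyond this run.

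The next longest run was of 10 lower genes on chromosome 4 (155442650 to 158278601). In it TDO2, which breaks down tryptophan, had 2 counts in KDR and 114 in NT (ratio 0.0168, 95% counting interval 0.00201 to 0.0621), as in KD2 with 1. GUCY1A1 and GUCY1B1, the subunits of the nitric oxide receptor, fell by 0.46 ± 0.06 and 0.86 ± 0.10, and CTSO, a cathepsin, by 0.87 ± 0.08. In all, 14 such runs held 5 or more genes. On chromosome 8, 20.1% of 690 tested genes were lower and 9.28% higher in KDR, and on chromosome 19, 10.1% of 1352 were lower and 18.3% higher. The share of genes called in KDR alone was highest on chromosome 4 (8.94% of 705) and X (8.43% of 617).

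**Figure D5:**
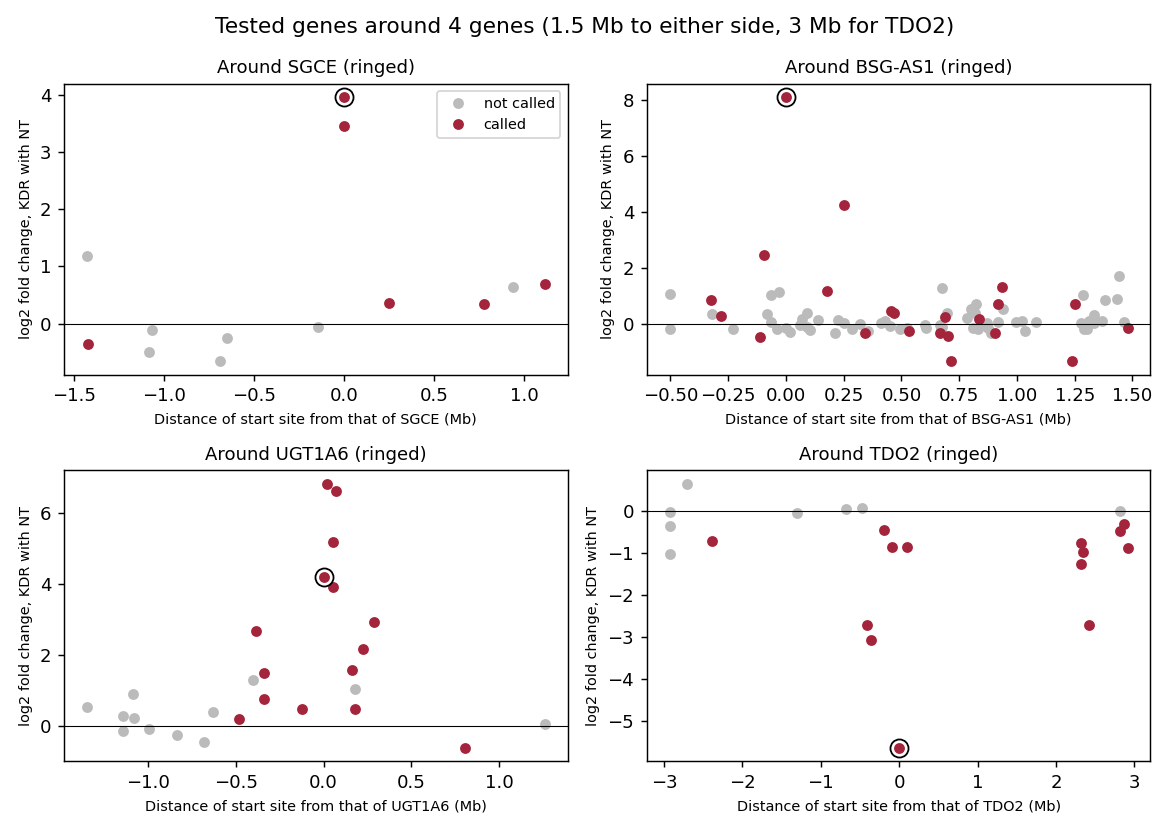
Log2 fold change of KDR with NT (vertical) for tested genes against the distance of their start site from that of a ringed gene in megabases (horizontal), within 1.5 Mb to either side and within 3 Mb for TDO2; red points were called. SGCE with PEG10, and BSG-AS1, lie above neighbours that are mostly near 0, with a few weaker calls above 2 near BSG-AS1, while called genes around UGT1A6 lie mostly above 0 and those around TDO2 mostly below 0.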

How the data were processed

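Poly-A selected RNA of 12 libraries was sequenced as paired reads. The authors' deposited tables hold whole-number counts per gene, made with featureCounts 1.6.4 over exons of Ensembl release 111 on GRCh38, per the file headers, which show no option for strand, for read pairs or for reads that overlap several genes. FastQC, cutadapt and HISAT2 are named in the submitters' processing notes; for these tools no version is given in the sources used here. Each file lists 63241 genes, of which 42338 have a symbol in the table used for names and hold 99.3% of the counts. Totals ran from 23786288 to 38240369 counts per library.

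Counts were scaled by TMM and filtered by expression within groups, and a quasi-likelihood model with group as the only term was fitted to all 12 libraries in edgeR 4.0.16 (R 4.3.3). Genes with a Benjamini-Hochberg adjusted p under 0.05 were called; SE and 95% intervals come from the same fit. The method was tested on simulated data, where 68% of genes changed 1.5-fold in KDR and 84% of those changed 2-fold were called. In it 100 of 19373 genes were changed at each fold, and the spread of a gene was the same in all groups. In the real libraries NT varied more than KDR and far more genes were called, so these rates need not hold for them. Alternatives were a fit by DESeq2 1.42.0, edgeR with the size factors of that tool, other filters on low counts, a fit of only the groups compared, a replicate block, a minimum log2 fold change of 1, and leaving out each library.

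Named genes were DHODH, CAD and UMPS; the 12 largest rises and 12 largest falls among protein-coding genes (mean of at least 5 CPM, groups not overlapping); the 10 highest and lowest among genes shared with KD2 and among those in KDR alone; up to 4 called members of each of 49 lists by adjusted p; and members of the 4 longest runs. Genes outside this rule are said in the text to be chosen after their values were seen; the luminal markers KLK3, TMPRSS2 and HOXB13 are among them. Members, lists and rule were chosen with earlier results of these data known. Some genes that the rule or the heat map would include are not reported here. Promoter windows are from RefSeq on GRCh38.p14 (35116 windows of 27305 genes). Counting intervals and floors cover counting error only.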

Additional observations from a re-analysis of the deposited data

How the results depend on the processing

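The number of called genes between KDR and NT was 5337 and lay between 4170 and 6180 under every alternative that kept the threshold, with 4170 in the fit of only the groups compared, 5310 with DESeq2, 5343 with DESeq2 size factors, 5248 with a minimum of 1 CPM in 3 libraries and 5303 with no filter. With a minimum of 1 for the absolute log2 fold change it was 1250. Leaving out 1 library at a time gave 4177 to 6180 called genes, 1926 to 2817 higher and 2245 to 3363 lower, 2324 to 3382 shared with KD2, 809 to 1426 in KDR alone, and 0.71 to 1.03 for DHODH. Of 269 called genes among those the rule named or that were added to them, 246 were called in 1 direction under every alternative that tested them (17 or 18 each), 23 lost the call under at least 1, and 0 were reversed. Uncalled values near 0 changed sign when 1 library was left out: CAD ranged from -0.0722 to 0.1325, UMPS from -0.036 to 0.0586, SLC45A3 from -0.0492 to 0.0478, CASD1 from -0.172 to 0.0085 and HOXB13 from -0.1189 to 0.0036. The cause was not tested.

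With the replicate number as a block, 5219 genes were called, 2487 higher and 2732 lower, 2771 of them shared with KD2 and 1049 in KDR alone, and DHODH was 0.83. Of 18 same-numbered pairs, 1 had a correlation of deviations above 0.1 (range -0.161 to 0.25). These deviations are from means of only 3 libraries per group, so weak correlations cannot decide whether same-numbered libraries were paired. Of 7111 uncalled genes that averaged 5 CPM or more, 7095 had 95% intervals that exclude a 2-fold difference. Smaller differences may still be missed.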

Other observations

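Genes that build mucin-type O-glycans, the sugar chains on secreted and surface proteins, were lower in KDR in 12 of 21 cases and higher in 1 (median -0.41; -0.07 in KD2). ST3GAL1, which caps these chains with sialic acid, averaged 1226 CPM in NT and 611 in KDR, a fall of 1.00. GALNT12, which starts the chains, fell by 1.77 and GALNT10, of the same family, by 0.75. Calcium pumps and store genes fell in 10 of 18 cases and rose in 1 (median -0.30); ATP2B4, a plasma membrane pump, fell by 1.04. ATP2A3, a pump of the endoplasmic reticulum chosen after its values were seen, averaged 8.66 CPM in NT, 529 in KD2 and 5.95 in KDR. Of 17 zinc carriers and metallothioneins, 8 fell and 1 rose; MT1G fell by 1.55 and MT2A by 0.87.

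Among 14 long noncoding RNAs described in prostate cancer, 7 rose and 1 fell (median 0.33; -0.40 in KD2), and 2 fell without NT replicate 2. PCAT14 rose by 1.08, SCHLAP1 by 0.79 and NEAT1 by 0.38. Of 15 cancer-testis antigens, 3 rose and 5 fell; MAGEA4 read 149, 165 and 155 CPM in NT and 33.9, 34.5 and 35.3 in KDR, where KD2 averaged 407, and reads of its close relatives can map to more than 1 of them. Of 52 cytosolic ribosomal protein genes, 3 rose and 0 fell in KDR (median 0.05), and 23 rose without NT replicate 2; 49 had risen in KD2 (median 0.38).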
